A study of Homo sapiens with 6 samples.

Results

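Mitochondrial ribosomal protein genes were taken as the protein-coding genes whose GENCODE name is MRPL or MRPS followed by a digit, with no hyphen. They were 78 of the 62252 genes summed, 49 named for the large subunit of the mitochondrial ribosome (MRPL) and 29 for the small subunit (MRPS). The rule reads the gene name and type and uses no measured value. Their 556 annotated transcripts were summed per gene, and all 78 genes passed the filter on low counts. Another 88 genes bear such a name but are not counted here, 74 of them processed pseudogenes.

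The RNA came from K562, an established human erythroid leukemia cell line that grows in suspension. The Chelator group was exposed overnight to 10 µM 21H7, a cell-permeable iron chelator, and the DMSO group received an equal volume of the solvent, with 3 libraries of polyadenylated RNA in each. Both groups were unmodified cells of 1 line at 1 dose and 1 time. No label says whether the replicates were separate cultures, so p-values measure the spread between these libraries, which may be technical.

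The mitochondrial ribosome makes the few proteins that the mitochondrial genome encodes, which are membrane subunits of the respiratory chain and of ATP synthase. Its RNAs are mitochondrial transcripts, but its proteins are encoded in the nucleus, made in the cytosol and imported. Some of these proteins descend from bacterial ribosomal proteins and others are found only in mitochondria. A few proteins of the small subunit hold iron-sulfur clusters.

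Total estimated counts ran from 78.6 to 90.4 M (M, mega) in DMSO and from 85.4 to 101 M in Chelator. TFRC, the transferrin receptor mRNA that low iron stabilizes, changed by 2.89 on the log2 scale (SE 0.10, adjusted p = 3.19e-172 by DESeq2). The 8 K562 markers lay between 42.9 and 7146 TPM (salmon's abundance corrected for transcript length and depth) in every library. Of 10 markers of other cell types, at 0 to 68.8 TPM, MS4A1 and KRT5 were too low to test, and the other 8 summed to 103 to 109 TPM in DMSO and 111 to 117 TPM in Chelator. EPCAM was the largest part of that sum in every library and fell by 0.48 on the log2 scale, as did COL1A2 by 0.48 and PTPRC by 0.27. CD3D rose by 1.59 (10.0 to 16.2 TPM in DMSO, 38.9 to 40.7 TPM in Chelator), and CD3E and COL1A1, at most 2.10 TPM in any library, rose by 1.97 and 1.60. The part of these markers in the results was not tested. Fragments averaged 265 to 275 bases in DMSO and were shorter in every Chelator library, at 219 to 232 bases. Their length and the treatment therefore cannot be told apart.

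Of the 78 genes, 43 were lower and 4 higher at an adjusted p under 0.05 (DESeq2's Wald test), and 31 did not pass. Among all 24542 genes with an adjusted p, 18.3% were lower and 19.5% higher. The mitochondrial ribosomal genes are abundant, and abundant genes passed the test more often: among protein-coding genes averaging 1000 or more normalized counts, 38.6% were lower and 24.4% higher. The median log2 fold change was −0.24 over the 78 genes, −0.09 over those 8563 abundant protein-coding genes and 0.02 over all genes. In bulk RNA, fewer cells and less RNA per cell cannot be told apart.

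The changes were small for each gene. No mitochondrial ribosomal gene passed the study's additional limit of an absolute log2 fold change above 1, against 2.6% of all genes called lower and 8.18% called higher by that limit. Log2 fold changes ran from −0.87 for MRPL36 to 0.40 for MRPL48, with standard errors of 0.07 to 0.27. All 3 Chelator libraries lay below all 3 DMSO libraries in 47 of the 78 genes and above them in 5, where 23.7% and 25.5% of all genes behaved this way. Among the 8563 abundant protein-coding genes, 3598 lay below and 2363 above in this way. The fold change was negative in 62 of the 78 genes, in 5037 of those 8563 and in 12056 of all 24542.

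By subunit, 30 of the 49 MRPL genes were lower, 1 was higher and 18 did not pass, with a median log2 fold change of −0.27 (−16.9%). Of the 29 MRPS genes, 13 were lower, 3 were higher and 13 did not pass, with a median of −0.16 (−10.7%). The 2 medians differed by −0.10 with all libraries, by −0.05 over protein_coding transcripts only and by −0.04 without Chelator replicate 1. That difference is a description over genes of the same libraries, and it was not tested. The names of 3 genes mislead on structure: MRPS30 and MRPS18A sit in the large subunit, and MRPS36 is a component of the oxoglutarate dehydrogenase complex (log2 fold change 0.15, SE 0.13, adjusted p = 0.40). Placed by structure, 31 of 51 large subunit genes were lower and 1 higher (median −0.27), and 12 of 26 small subunit genes were lower and 3 higher (median −0.17).

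**Figure D1:**
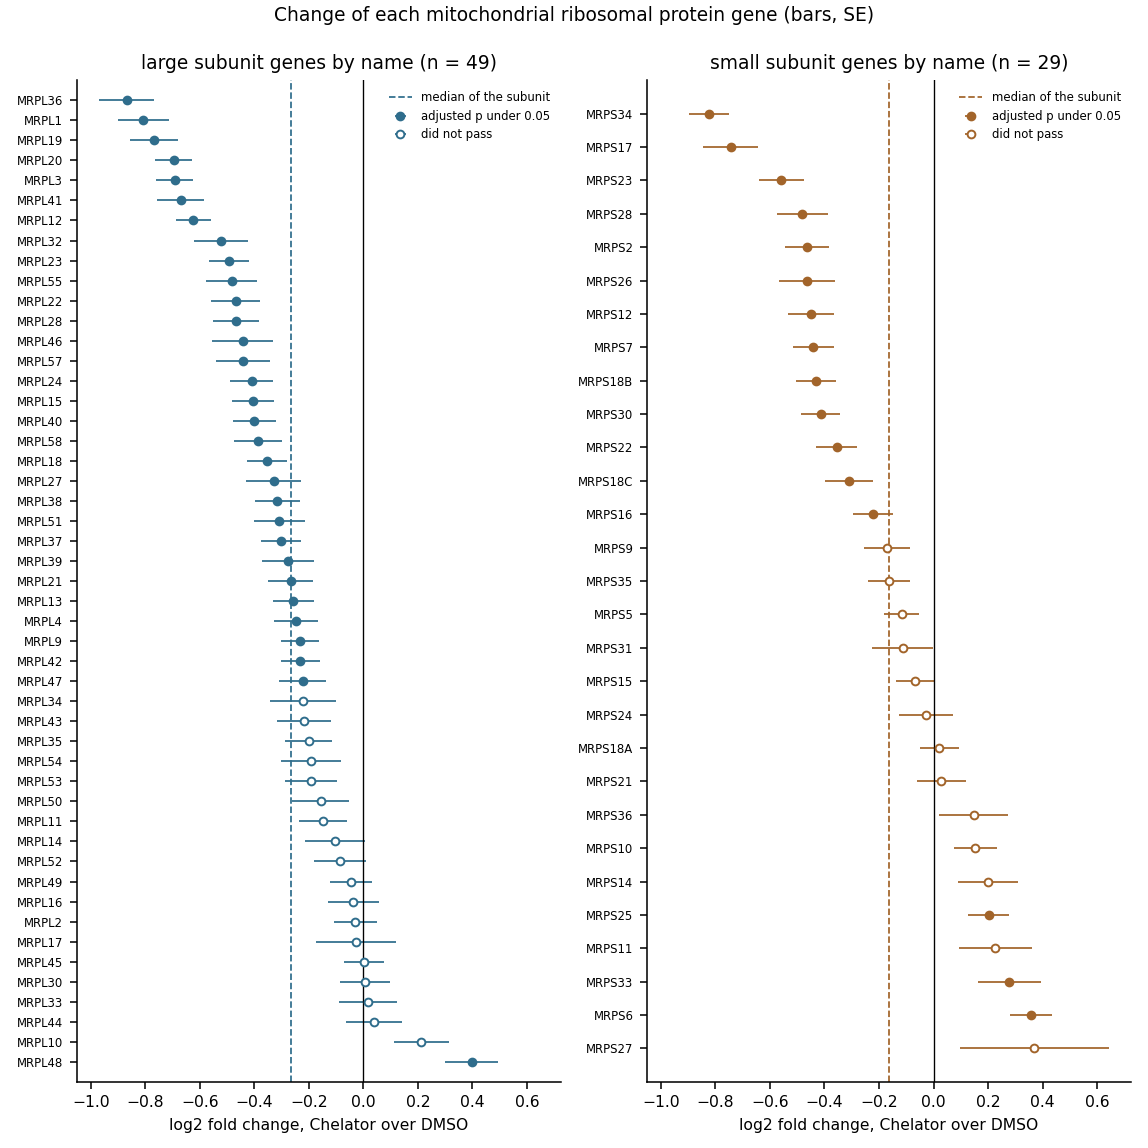
Log2 fold change of each gene, Chelator over DMSO, with MRPL genes on the left and MRPS genes on the right. Points are DESeq2 estimates with SE bars, filled where the adjusted p was under 0.05, and dashed lines mark the medians of −0.27 and −0.16. Filled points to the right of 0 are MRPL48, MRPS6, MRPS33 and MRPS25.

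Summed TPM gave the same order of subunits. The MRPL genes summed to 4799, 5016 and 4745 TPM in DMSO and to 3764, 4066 and 4031 TPM in Chelator. The mean went from 4853 ± 143 to 3954 ± 165 TPM (SD, n = 3 each), a change of −18.5%, and the groups did not overlap. The MRPS genes summed to 2369, 2492 and 2374 TPM in DMSO and to 2057, 2196 and 2225 TPM in Chelator. Here the mean went from 2412 ± 69.6 to 2160 ± 89.7 TPM (SD, n = 3 each), a change of −10.5%, again without overlap. The sums were not tested. Together the 78 genes made up 0.727% of all TPM in DMSO and 0.611% in Chelator.

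**Figure D2:**
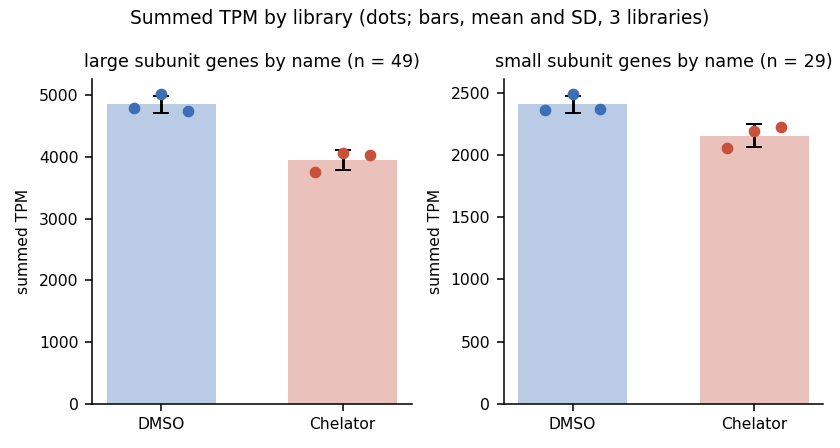
Summed TPM of the 49 MRPL and the 29 MRPS genes in each library. Dots are libraries, and bars give the mean with its SD over 3 libraries. Every Chelator library lies below every DMSO library in both panels.

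A ratio of the sums within 1 library does not depend on how libraries were scaled. The MRPL sum was 2.026, 2.013 and 1.999 times the MRPS sum with DMSO and 1.829, 1.851 and 1.812 times with Chelator. The mean ratio thus went from 2.01 ± 0.013 to 1.83 ± 0.020 (SD, n = 3 each), with no overlap between the groups. It moved from 2.27 to 2.08 with subunits placed by structure, from 2.06 to 1.90 without MRPS27, and from 1.97 to 1.79 without the 6 genes of largest fall. The ratio summarizes chosen genes and was not tested.

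The genes were also divided by lists of bacterial homologues and of mitochondria specific proteins. These lists count MRPS18A, MRPS18B and MRPL47 as mitochondria specific, though they have bacterial homologues. The division therefore follows descent only in part. Of 44 genes listed with a bacterial homologue, 25 were lower and 1 higher (median log2 fold change −0.25). Of 33 genes listed as mitochondria specific, 18 were lower and 3 higher (median −0.23). Within the bacterial class the medians were −0.30 for 28 large subunit genes and −0.14 for 16 small subunit genes. Within the mitochondria specific class they were −0.23 for 23 and −0.26 for 10.

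Genes for mitochondrial proteins often carry promoter motifs of NRF1, ETS family factors and YY1, so the promoters were searched for their letters. RefSeq promoters on GRCh38.p14, from 250 bases before to 50 bases after the start, were matched for 69 of the 78 genes, all but MRPL2, MRPL10, MRPL13, MRPL15, MRPL21, MRPL23, MRPL35, MRPS28 and MRPS36. Both strands were searched for GCGCANGCG (NRF1), CCGGAAGT (ETS), AANATGGCG (YY1) and CACGTG (the E-box of MYC and related factors). NRF1 letters were in 13 of the 69 (18.8%), against 8.05% of all 27305 promoters. ETS letters were in 11 (15.9%, against 4.44%), YY1 letters in 18 (26.1%, against 3.37%) and E-box letters in 6 (8.70%, against 7.43%). At least 1 of the 4 was in 52.2% of these promoters and in 19.9% of all promoters. It was in 52.6% of the 38 promoters of genes lower in Chelator and in 51.6% of the other 31. The single motifs went both ways, with ETS letters in 21.1% of the former and 9.68% of the latter, and NRF1 letters in 15.8% and 22.6%. YY1 letters were in 28.9% and 22.6%, and E-box letters in 10.5% and 6.45%.

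The 120 bases before the start are shown for 6 genes whose window holds no annotated exon, to set windows with and without such letters beside the measured changes. They are read 5′ to 3′ on the gene's strand from RefSeq (GRCh38.p14), and capitals mark the letters of an ETS motif in MRPL20 and of NRF1 motifs in MRPL22, MRPL17 and MRPS9. Of the 27 windows without an annotated exon, all 4 with such letters are shown. MRPL1 and MRPL19 were picked from the other 23 because they had the largest falls.
MRPL20, chr1:1407294-1407413, minus strand: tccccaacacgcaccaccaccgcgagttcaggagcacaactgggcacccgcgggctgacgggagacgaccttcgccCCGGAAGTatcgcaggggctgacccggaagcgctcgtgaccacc
MRPL22, chr5:154940953-154941072, plus strand: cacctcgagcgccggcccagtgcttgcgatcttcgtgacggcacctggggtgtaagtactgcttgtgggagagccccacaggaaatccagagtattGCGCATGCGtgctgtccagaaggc
MRPL17, chr11:6683341-6683460, minus strand: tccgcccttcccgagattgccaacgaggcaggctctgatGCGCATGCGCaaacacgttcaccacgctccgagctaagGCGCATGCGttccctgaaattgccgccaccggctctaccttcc
MRPS9, chr2:105037949-105038068, plus strand: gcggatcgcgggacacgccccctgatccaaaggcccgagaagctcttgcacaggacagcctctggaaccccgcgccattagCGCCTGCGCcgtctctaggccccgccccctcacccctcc
MRPL1, chr4:77862710-77862829, plus strand: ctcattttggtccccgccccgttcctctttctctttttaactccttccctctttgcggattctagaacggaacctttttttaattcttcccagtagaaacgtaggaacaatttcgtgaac
MRPL19, chr2:75646663-75646782, plus strand: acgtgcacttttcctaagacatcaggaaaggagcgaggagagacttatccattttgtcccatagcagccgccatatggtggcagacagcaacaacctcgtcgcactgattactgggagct
MRPL20 and MRPL22 had log2 fold changes of −0.70 and −0.47. Over the 23 windows without these letters, log2 fold changes ran from −0.81 in MRPL1 to 0.20 in MRPS14, with a median of −0.23 and 12 genes lower. MRPL1 and MRPS14 have YY1 letters 17 and 15 bases past the start, outside their windows. Others of the 23 also have letters outside, among them MRPL32 and MRPL42 with YY1 letters 9 bases past the start. So do genes shown with letters: MRPL20 (NRF1 at −212), MRPL22 (E-box at −176, YY1 at 36) and MRPS9 (YY1 at 22). The windows thus do not separate whole promoters with and without these letters. MRPL17, in which NRF1 letters occur at more than 1 place and overlap on both strands, had −0.03 (adjusted p = 0.92), and MRPS9 had −0.17 (adjusted p = 0.10). A match of letters is a description of the sequence and does not show binding.

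The 6 largest falls were in 4 MRPL and 2 MRPS genes. MRPL36 (ENSG00000171421.13, chromosome 5, 1798385 to 1801366 on GRCh38), a small zinc-binding protein of the large subunit, had normalized counts of 2933, 2504 and 2975 in DMSO and 1494, 1457 and 1656 in Chelator. It fell by 45.2% (log2 fold change −0.87, SE 0.10, adjusted p = 2.65e-16), with the groups far apart. MRPL1 (ENSG00000169288.18, chromosome 4, 77862830 to 77952785), which forms the stalk beside the tRNA exit site, was at 3287, 2817 and 3271 in DMSO and at 1847, 1728 and 1782 in Chelator. Its log2 fold change was −0.81 (SE 0.09, adjusted p = 8.78e-17), and no Chelator library reached a DMSO library.

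MRPL19 (ENSG00000115364.14, chromosome 2, 75646783 to 75690851), a homologue of bacterial L19, was counted at 7095, 7197 and 7602 in DMSO and at 4734, 4203 and 3917 in Chelator. The difference was −0.77 on the log2 scale (SE 0.09, adjusted p = 2.62e-17) and −1.11 without the length offset, the 1 gene past a log2 change of 1 in that setting. MRPL20 (ENSG00000242485.6, chromosome 1, 1401909 to 1407293), homologue of an early-binding bacterial assembly protein, stood at 11018, 10152 and 10730 against 6488, 6477 and 6735. MRPL20 fell by 38.2% (log2 fold change −0.70, SE 0.07, adjusted p = 9.61e-23). It was also the third most abundant of the 78 mRNAs per length, at 289 ± 16.2 TPM in DMSO and 182 ± 6.56 TPM in Chelator (SD, n = 3 each). Both genes were lower in every Chelator library.

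MRPL3, a core protein near the peptidyl transferase center, had normalized counts of 14333, 13249 and 14366 in DMSO and of 8964, 8429 and 8560 in Chelator (log2 fold change −0.69, SE 0.07, adjusted p = 6.71e-22). MRPL12 (ENSG00000262814.8, chromosome 17, 81703367 to 81707517), the stalk protein that recruits translation factors and also binds the mitochondrial RNA polymerase, was at 13497, 12578 and 13002 in DMSO and at 8424, 8353 and 8589 in Chelator. Its log2 fold change was −0.62 (SE 0.07, adjusted p = 2.90e-20). Of the same stalk, MRPL10 and MRPL11 did not pass the test. MRPL10, which anchors MRPL12, had a log2 fold change of 0.21 (adjusted p = 0.085) and MRPL11, at the stalk base, one of −0.15 (adjusted p = 0.18). Both depended on the fit: MRPL10 was higher without the length offset (0.34, adjusted p = 5.01e-05), and MRPL11 was lower in 5 of 17 alternatives, among them protein_coding transcripts only (−0.41, adjusted p = 3.07e-07). MRPL3 and MRPL10 were named after their values were seen, as were MRPL17, MRPL22 and MRPS9 above.

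Proteins particular to the mitochondrial large subunit included the most abundant mRNAs. MRPL41 (ENSG00000182154.8, chromosome 9, 137551879 to 137552555) ranked first per length, at 332, 329 and 340 TPM in DMSO and 203, 220 and 221 TPM in Chelator. Its normalized counts gave a log2 fold change of −0.67 (SE 0.09, adjusted p = 2.42e-13), or −1.07 with trends of GC content and length removed. MRPL37 ranked second, at 263 ± 23.5 TPM in DMSO and 217 ± 9.25 TPM in Chelator (SD, n = 3 each), with a log2 fold change of −0.30 (SE 0.07, adjusted p = 1.52e-04). The TPM of MRPL41 did not overlap between the groups, nor did that of MRPL37.

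At the other end of the range, MRPL57 and MRPL50 were the least abundant MRPL mRNAs per length. MRPL57 had 13.0, 13.7 and 13.4 TPM in DMSO and 9.13, 10.5 and 10.6 TPM in Chelator, and its normalized counts fell by 0.44 on the log2 scale (SE 0.10, adjusted p = 3.89e-05). MRPL50 lay at 14.6 ± 0.474 TPM in DMSO and 13.5 ± 1.63 TPM in Chelator (SD, n = 3 each), with overlapping normalized counts and an adjusted p of 0.25 (0.0043 without the length offset). MRPL58, a peptidyl-tRNA hydrolase that rescues stalled ribosomes and was built into the large subunit, was at 2963, 2613 and 2983 normalized counts in DMSO and 2106, 2173 and 2269 in Chelator. Its log2 fold change was −0.39 (SE 0.09, adjusted p = 7.83e-05).

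In the small subunit, MRPS34 and MRPS17 fell most. MRPS34 (ENSG00000074071.15, chromosome 16, 1771890 to 1773150), a mitochondria specific protein needed for a stable small subunit, had normalized counts of 11323, 10177 and 10458 in DMSO and of 6254, 5822 and 5990 in Chelator. It fell by 43.5% (log2 fold change −0.82, SE 0.07, adjusted p = 3.53e-27). EME2 lies on the opposite strand and covers 31.2% of its exon bases, at a mean of 7.74 TPM, and strandedness was not stated. MRPS17 (ENSG00000239789.6, chromosome 7, 55951877 to 55956500), homologue of an rRNA-binding bacterial protein, was at 2855, 2581 and 2789 in DMSO and at 1452, 1671 and 1789 in Chelator. Its log2 fold change was −0.74 (SE 0.10, adjusted p = 3.35e-12). Transcripts of other expressed genes share 47.7% of its 31-base sequences, so how salmon divided its reads is uncertain.

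**Figure D3:**
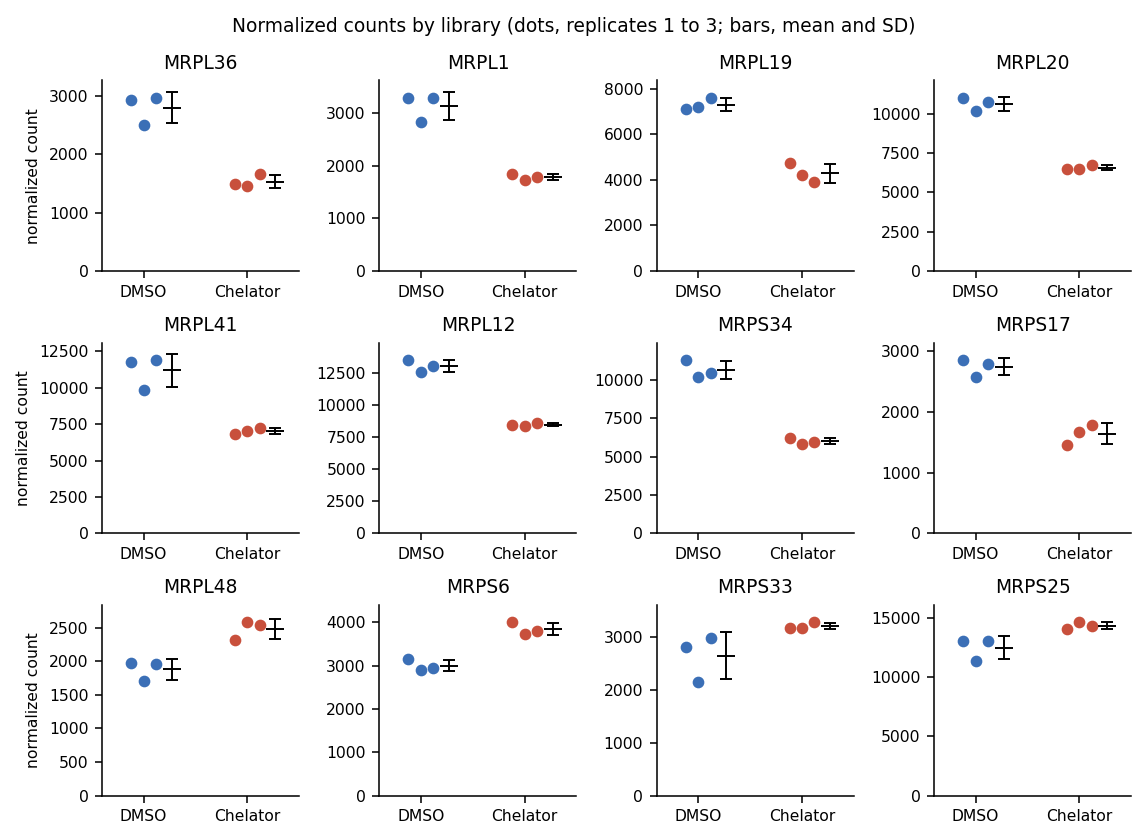
Normalized counts (size factor and length corrected) of 12 genes by library, blue for DMSO and red for Chelator, each axis starting at 0. Dots are replicates 1 to 3, and bars give the mean with its SD. The first 8 genes are lower in every Chelator library, and MRPL48, MRPS6, MRPS33 and MRPS25 are higher in every Chelator library.

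The most abundant MRPS mRNAs per length behaved unlike one another. MRPS16 lay at 198 ± 8.72 TPM in DMSO and 174 ± 5.11 TPM in Chelator (SD, n = 3 each), and its normalized counts had a log2 fold change of −0.22 (SE 0.07, adjusted p = 0.0090, or 0.069 without DMSO replicate 3). MRPS24 had 175 ± 5.35 and 176 ± 14.8 TPM, overlapping groups and an adjusted p of 0.86. Of its 31-base sequences, 89.2% also occur in other expressed genes, mainly the readthrough gene URGCP-MRPS24. MRPS18B was at 182 ± 10.3 TPM in DMSO and 137 ± 4.76 TPM in Chelator (SD, n = 3 each). MRPS31, among the lowest, had 17.5 ± 0.387 and 16.5 ± 1.44 TPM (SD, n = 3 each) and an adjusted p of 0.48.

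The 3 MRPS18 proteins are alternative homologues of bacterial S18 at different places of the ribosome. MRPS18B fell by 0.43 on the log2 scale (SE 0.07, adjusted p = 2.54e-08) and MRPS18C by 0.31 (SE 0.09, adjusted p = 0.0018), both with separate groups. For MRPS18B the log2 fold change was −0.21 (adjusted p = 0.0031) without the length offset and −0.15 (adjusted p = 0.0080) over protein_coding transcripts, and for MRPS18C it was −0.19 (adjusted p = 0.043) with trends of GC content and length removed. MRPS18A, the copy in the large subunit, had normalized counts of 5879, 5619 and 5967 in DMSO and of 5748, 5776 and 6197 in Chelator (log2 fold change 0.02, SE 0.07, adjusted p = 0.86). ABRAXAS1 overlaps 40.2% of the exon bases of MRPS18C on the opposite strand, at a mean of 38.9 TPM.

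The 4 small subunit proteins at iron-sulfur cluster sites went in both directions. MRPS16 and MRPS18C were lower, as given above, and MRPS6 and MRPS25 were higher. MRPS6 (ENSG00000243927.6, chromosome 21, 34073224 to 34143034), which faces MRPS18C at 1 such site, had 3150, 2904 and 2937 normalized counts in DMSO and 4001, 3728 and 3792 in Chelator. It was 28.1% higher (log2 fold change 0.36, SE 0.08, adjusted p = 3.07e-05). Its exons share 30.9% of 31-base sequences with other genes, among them SLC5A3.

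MRPS25 (ENSG00000131368.9, chromosome 3, 15009611 to 15065339) was at 13042, 11368 and 13059 in DMSO and at 14057, 14666 and 14370 in Chelator. Its rise was small (log2 fold change 0.20, SE 0.08, adjusted p = 0.025) and did not pass without the length offset (0.12, adjusted p = 0.17), while over protein_coding transcripts only it was larger (0.66, adjusted p = 1.74e-08). NR2C2 on the opposite strand covers 39.1% of its exon bases, and 41.7% of its 31-base sequences also occur in other expressed genes. The call for MRPS25 was also lost without DMSO replicate 2 (adjusted p = 0.055), Chelator replicate 2 (0.096) or Chelator replicate 3 (0.074).

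Besides these, MRPL48 and MRPS33 were higher. MRPL48 (ENSG00000175581.14, chromosome 11, 73787872 to 73865133), in the central protuberance of the large subunit, was at 1982, 1701 and 1967 in DMSO and at 2312, 2585 and 2543 in Chelator (log2 fold change 0.40, SE 0.10, adjusted p = 2.24e-04). Without the length offset its log2 fold change was 0.10 (adjusted p = 0.38), since the mean effective length of its transcripts was 0.818 times that in DMSO. MRPS33 (ENSG00000090263.16, chromosome 7, 141002610 to 141015228) had 2809, 2144 and 2978 in DMSO and 3174, 3164 and 3277 in Chelator, and its log2 fold change of 0.28 (SE 0.12, adjusted p = 0.045) became −0.08 (adjusted p = 0.49) over protein_coding transcripts only. The MRPS33 call was also lost without the length offset (0.06, adjusted p = 0.62) and without DMSO replicate 1 (adjusted p = 0.060), DMSO replicate 2 (0.13), Chelator replicate 1 (0.097), Chelator replicate 2 (0.12) or Chelator replicate 3 (0.16).

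Of the 4 rises, MRPL48 and MRPS6 passed in every fit that left out 1 library, and MRPS25 and MRPS33 did not. Leaving out DMSO replicate 2, Chelator replicate 2 or Chelator replicate 3 left 2 of the 4 rises, and centring the libraries on their mean log2 level left 0. That centring moved the median log2 fold change of all genes from 0.02 to −0.18 and raised the falls from 43 to 58. Over the 18 fits made, 34 of the 78 genes were lower in every fit and 0 were higher in every fit. The matching shares of all genes in these other fits are not given here, so the counts cannot be set against them. DMSO replicate 2 had the lowest normalized count of its group in 72 of the 78 genes. In TPM the same library had the highest sum of the 6, and its mitochondrial genome share of 4.42% was the lowest of the 6.

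Transcript choice within the genes was compared next, since a gene sum does not show it. Of 69 genes that could be tested, 7 (10.1%) changed usage, near the 9.22% of all 11938 genes tested (edgeR diffSpliceDGE, adjusted Simes p under 0.05 and a share change above 5 percentage points). The count was 3 of 69 without DMSO replicate 2, where 7.94% of all genes were called, and 3 of 69 without Chelator replicate 3, where 4.68% were. With limma diffSplice it was 24 of 69 (34.8%), against 26.7% of all genes. Over the 78 genes, transcripts annotated as protein_coding held 90.4 ± 0.137% of TPM in DMSO and 88.0 ± 0.630% in Chelator (SD, n = 3 each). Retained intron transcripts went from 4.48 ± 0.164% to 5.50 ± 0.323%, and transcripts subject to nonsense-mediated decay from 2.92 ± 0.036% to 3.48 ± 0.119% (SD, n = 3 each). None of the 3 classes overlapped between the groups. Without MRPS27 and MRPS33, left out after their values were seen, retained intron transcripts held 4.12 ± 0.047% and 4.33 ± 0.237% (SD, n = 3 each) and the groups overlapped. The other classes did not overlap without these genes, with decay transcripts at 2.96 ± 0.036% and 3.56 ± 0.111% and protein_coding transcripts at 90.7 ± 0.038% and 89.2 ± 0.224% (SD, n = 3 each). Over all genes retained intron transcripts went from 5.43 ± 0.204% to 6.41 ± 0.341%, decay transcripts from 2.32 ± 0.092% to 2.97 ± 0.210% and protein_coding transcripts from 81.2 ± 1.17% to 79.2 ± 1.40% (SD, n = 3 each).

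MRPS27, an RNA-binding pentatricopeptide repeat protein of the small subunit, showed how strongly usage can move a gene value. Its main transcript MRPS27-201 held 78.9, 83.6 and 77.0% of the gene's TPM in DMSO and 53.1, 46.1 and 26.2% in Chelator (edgeR diffSpliceDGE, adjusted p = 4.13e-07). A 504-base retained intron transcript, MRPS27-212, held 0% in every DMSO library and 30.6, 38.6 and 26.9% with Chelator. In Chelator replicate 3, a further 36.2% of TPM rested on 3 estimated counts of MRPS27-215, a transcript of 127 bases. The gene's log2 fold change was 0.37 (SE 0.27, adjusted p = 0.31) with the length offset, −0.49 (adjusted p = 2.77e-13) without it and −0.52 (adjusted p = 6.72e-22) over protein_coding transcripts. Normalized counts were 9011, 7942 and 8907 in DMSO and 8707, 9460 and 15266 in Chelator, and the log2 fold change was 0.08 (adjusted p = 0.59) without Chelator replicate 3 and 0.11 (adjusted p = 0.25) over transcripts of at least 500 bases. The estimated counts of MRPS27-201 were 9202, 8455 and 7668 in DMSO and 6557, 6965 and 5268 in Chelator, without overlap.

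In the other genes the shifts were smaller. The retained intron transcript MRPS33-208 went from 35.6, 31.6 and 45.0% of the gene's TPM in DMSO to 49.1, 54.9 and 54.6% in Chelator. MRPL42-209, which has no defined coding sequence, went from 6.62, 4.79 and 3.51% to 13.2, 20.5 and 27.8%, and MRPL11-206, a nonsense-mediated decay transcript, from 51.9, 46.9 and 46.6% to 58.5, 58.2 and 60.0%. These 3 transcripts held a larger share in every Chelator library. MRPS25-219, also a decay transcript, went from 33.9, 34.5 and 29.7% to 20.2, 11.7 and 0%, while MRPS25-228, a decay transcript of nearly the same length (910 against 908 bases), went from 0% in all DMSO libraries to 9.14, 12.2 and 24.6%. MRPS30-202, the main coding transcript of MRPS30, went from 89.4 ± 1.63% to 95.2 ± 0.976% (SD, n = 3 each), and the gene itself fell by 0.41 on the log2 scale (SE 0.07, adjusted p = 6.89e-08), or by 0.27 over protein_coding transcripts.

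**Figure D4:**
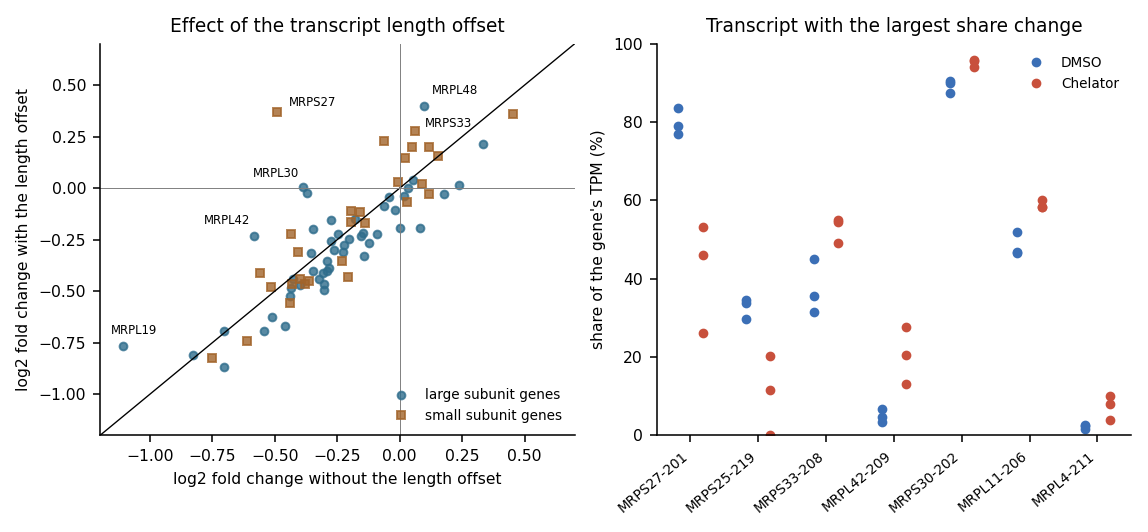
Left, log2 fold change of each gene with and without the offset for transcript length, with the line of equality: MRPS27 stands at 0.37 with it and −0.49 without it. Right, share of the gene's TPM held by the transcript with the largest share change in each of the 7 genes that changed usage, with dots for the libraries of each group.

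The rest of the mitochondrial translation apparatus was taken from lists of its known parts. Of the 5 mitoribosome subunits without an MRP name, 3 were lower and 1 higher. GADD45GIP1, a large subunit protein, was at 8935, 7966 and 9054 normalized counts in DMSO and 5589, 5642 and 5765 in Chelator (log2 fold change −0.61, SE 0.08, adjusted p = 2.06e-14). AURKAIP1 and PTCD3, both of the small subunit, had log2 fold changes of −0.27 (adjusted p = 1.77e-04) and −0.28 (adjusted p = 2.46e-04), and CHCHD1 one of −0.04 (adjusted p = 0.78). DAP3, the GTP-binding protein of the small subunit, went the other way, from 12367, 11635 and 11756 to 15179, 15218 and 15615 (log2 fold change 0.36, SE 0.06, adjusted p = 9.00e-08). Every Chelator library was above every DMSO library for DAP3 and below for GADD45GIP1.

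Of 30 factors that assemble or modify the mitochondrial ribosome, 19 were lower and 2 higher, with a median log2 fold change of −0.28. FASTKD2, an RNA-binding protein of large subunit assembly, was at 4803, 4691 and 4356 normalized counts in DMSO and 3014, 2552 and 2493 in Chelator (log2 fold change −0.78, SE 0.09, adjusted p = 3.55e-15). The rRNA methyltransferase MRM3 had a log2 fold change of −0.62 (SE 0.10, adjusted p = 4.26e-09). The 2 rises were YBEY, an endoribonuclease, at 0.37 (SE 0.13, adjusted p = 0.013), and MTG1, a GTPase of large subunit assembly, at 0.25 (SE 0.10, adjusted p = 0.041).

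Of 21 mitochondrial translation factors and their partners, 14 were lower and 7 did not pass, with a median log2 fold change of −0.37. GFM1, elongation factor G1 of mitochondria, was at 13345, 12619 and 14435 normalized counts in DMSO and 6217, 6073 and 6742 in Chelator. With a log2 fold change of −1.09 (SE 0.08, adjusted p = 1.74e-40) it was the 1 gene of these lists past the study's fold limit. The list also holds LETM1, an inner membrane ion exchanger, at −0.74 (SE 0.07, adjusted p = 8.09e-24).

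The lists for the cytosolic ribosome and the respiratory chain had medians of the opposite sign. Of 79 cytosolic ribosomal protein genes, 2 were lower and 44 higher (median log2 fold change 0.24). Of 78 nuclear genes for subunits of the respiratory chain or ATP synthase, 9 were lower and 40 higher (median 0.21). No test between lists was run.

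**Figure D5:**
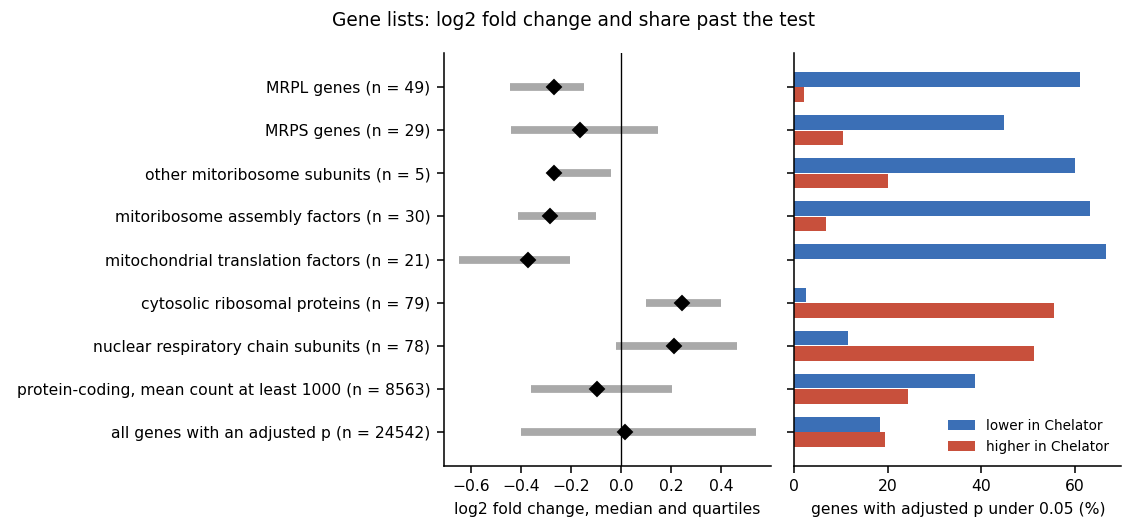
Left, median (diamond) and quartiles (bar) of the log2 fold change, Chelator over DMSO, in each list and in 2 sets of background genes. Right, percent of each list lower or higher at an adjusted p under 0.05: 61.2% of MRPL and 44.8% of MRPS genes were lower, against 2.53% of cytosolic ribosomal protein genes.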

How the data were processed

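Polyadenylated RNA was sequenced as paired-end Illumina reads from 3 DMSO and 3 Chelator libraries. The authors quantified reads with Salmon 1.10.2, whose reference annotation was not stated. They deposited an estimated count, a TPM and an effective length for each of 252045 transcripts, per library and unpooled. An estimated count need not be whole, because a shared read is divided among transcripts, and the deposited TPM values are the authors' counts over effective length, scaled to 1 sum per library. The submitters' processing notes also list DESeq2 (given as 3.19), STAR 2.7.11b and the genome build hg38, which the paper names for the STAR mapping.

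Identifiers were looked up in GENCODE release 44, and the 433 transcripts without a match (0.139 to 0.150% of counts) were left out. Expected counts were summed per gene and rounded. DESeq2 1.42.0 (R 4.3.3) fitted all 26074 genes with a total above 10, with median-ratio size factors and average transcript length as an offset, and p-values were Benjamini-Hochberg adjusted over the 24542 genes that received one. Normalized counts are divided by size factor and length offset. Transcript usage was tested with edgeR 4.0.16 on transcripts that reached 10 counts in 3 or more libraries. limma 3.58.1 and mgcv 1.9.3 served alternatives. Scripts were tested on simulated data.

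The genes named were the 6 largest falls and up to 6 largest rises among genes that passed the test (4 rises did), the 3 most and 2 least abundant of each subunit, the MRPS18 family, iron-sulfur sites, MRPS36, MRPL58, MRPL12 and the largest usage changes. The members and lists were chosen with earlier results of these data known, so they are not independent evidence. Fragment length was read from length minus effective length. Shared sequence is the percent of a gene's 31-base sequences, over its main transcripts, found in other genes' transcripts of at least 0.1 TPM. Alternatives to the fit changed the size factors, centring, length offset, count filter, transcripts summed, GC and length trends, replicate block, test (edgeR's quasi-likelihood, limma) and libraries included.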

Additional observations from a re-analysis of the deposited data

How the results depend on the processing

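Over 17 other fits the number of lower genes was 39 to 58 and the medians of both subunits stayed negative. The shares of all genes lower or higher in each of these fits are not given here. The number of higher genes was 2 without the length offset, 0 with libraries centred on the mean log2 level and 7 with trends of GC content and length removed, and 2 to 6 leaving out 1 library at a time. Those 3 settings put 1, 3 and 2 genes below a log2 fold change of −1. Centring gave medians of −0.46 (MRPL) and −0.35 (MRPS), and removing the trends gave −0.41 for MRPL, with a difference of the medians of −0.24, which was −0.055 over protein_coding transcripts only. Leaving out 1 library, the difference ranged from −0.16 to −0.038, the lower genes from 39 to 47, the MRPL median from −0.31 to −0.23 and the MRPS median from −0.21 to −0.12. For usage, limma diffSplice called 24 genes (34.8%, against 26.7% of all genes), and leaving out libraries gave 3 to 8. The causes of these moves were not tested.

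Some single genes changed sign. MRPS27 was −0.49 without the offset and −0.52 over protein_coding transcripts, and MRPS33 was −0.083 over the latter. MRPS24 was 0.12 without the offset, 0.037 over protein_coding transcripts, 0.016 with TMM size factors, 0.016 with edgeR's quasi-likelihood test, 0.0062 with limma on log2(TPM + 1), and −0.13 to 0.024 leaving out libraries. MRPS18A was −0.17 centred, −0.16 with trends removed and −0.013 to 0.044 leaving out libraries. With trends removed MRPL50 was 0.089 and MRPS31 0.0067, and centred MRPS36 was −0.052. Over the alternatives, 414 values of the 27 genes named by the rule kept direction and side of the threshold. Another 17 no longer passed, 10 newly passed and 18 changed sign. MRPL3, MRPL10, MRPL17, MRPL22 and MRPS9 are not in this tally.

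Whether replicate numbers pair the samples is not settled, and the main fit treated them as unpaired. Deviations from the group means correlated by −0.07, 0.13 and 0.11 between like numbers 1, 2 and 3. Between unlike numbers the correlations ran from −0.16 to 0.08. The fit with a replicate block gave 43 lower, 5 higher and 6 genes of changed usage. Mean normalized counts of at least 1293 and SEs of 0.07 to 0.27 set the size of change that could be detected.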

Other observations

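Many mitochondrial ribosomal protein genes start close to another gene on the opposite strand. Of the 78, 26 (33.3%) had a protein-coding neighbour with a divergent start within 1000 bases, against 11.5% of 15487 protein-coding genes tested. Of the 18 neighbours of genes that were lower in Chelator, 6 were lower too and 2 were higher, where 18.3% of all genes and 38.6% of abundant protein-coding genes were lower. MRPL18 and TCP1, a subunit of the cytosolic chaperonin, start 865 bases apart and had log2 fold changes of −0.35 and −0.73. MRPS12 and SARS2, the mitochondrial seryl-tRNA synthetase, start 181 bases apart and had −0.45 and −0.50. MRPL27 and EME1, a subunit of a DNA endonuclease, start 45 bases apart and had −0.33 and 0.88. MRPL46 and MRPS11, which encode a protein of each subunit, start 320 bases apart and had −0.44 (adjusted p = 3.21e-04) and 0.23 (adjusted p = 0.18). Of the 31-base sequences of MRPL46, 72.7% also occur in other expressed genes. These pairs were named after their values were seen, and no test of the pairs was run.

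Across the 78 genes the log2 fold change had a Pearson r of −0.22 with GC content, 0.16 with mean transcript length, −0.21 with mean TPM and −0.39 with the ratio of effective lengths between the groups. These are descriptions across genes of the same 6 libraries, and the ratio of lengths also enters the offset of the fit.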
